A study of Mus musculus with 26 samples.

Results

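Livers of mice labelled as liver-specific Bmal1 knockouts were compared with control livers at CT12, circadian time 12, which is 12 h after the former hour of lights-on. The 6 RNA-seq libraries of this comparison, 3 of each genotype, were chosen by their labels from the 26 libraries of the series, of which 20 are RNA-seq. Mice were 8 weeks old. Controls carry the strain label C57BL/6, and the other mice carry Bmal1 knockout in the same field, with no background strain named for them. All mice had been held in 12 h of light and 12 h of dark with free access to food, and then in constant darkness for 2 days. The driver of the liver deletion and the part of the gene that it removes are not stated in the labels, and neither is the source of the control mice beyond their strain. Beside the CT12 groups, 3 control and 3 knockout livers at CT0 share the fit and serve to test whether an effect differed between the 2 times. Control and Nr1d1 knockout livers at CT12, 2 of each, give values for comparison, and those at CT0, also 2 of each, share their fit.

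BMAL1, the protein of the gene Arntl, pairs with CLOCK or NPAS2 and activates genes that carry E-boxes, among them the repressor genes of the Per and Cry families, the REV-ERB genes Nr1d1 and Nr1d2, and the PAR bZIP factors Dbp, Tef and Hlf. REV-ERB proteins in turn repress Arntl, Clock, Npas2, Cry1 and metabolic genes through elements that ROR proteins also bind, and PAR bZIP factors act on liver genes through D-boxes. In mouse liver at this time of day many E-box genes are high and many REV-ERB-repressed genes are low, so that loss of BMAL1 can be read in both arms of the loop.

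Values are deposited RPKM, which divides the reads of a transcript by its length in kilobases and by library depth. Differences are log2(RPKM + 0.5) of the labelled knockouts minus controls, with the standard error of the limma fit. A gene was called higher or lower at a Benjamini-Hochberg adjusted p under 0.05 over the 11322 genes whose RPKM averaged 0.5 or more in the 6 libraries. Because 0.5 is added first, weakly expressed genes get a smaller log2 difference than the ratio of their RPKM. Reads recovered from the RPKM steps were 4.96 to 6.28 M per library (M, in units of 1e6), without the most abundant genes, with a median of 161 reads per library and tested gene. Nothing in the labels ties libraries of different genotype to a shared cage or day, and p-values measure the spread between these livers.

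At CT12, 742 genes were called higher in the labelled knockouts and 379 lower, which is 6.55% and 3.35% of the genes tested, or 9.90% together. Of the 1121 called genes, 1114 had 3 knockout values all on one side of the 3 control values. Over all genes tested, knockout values lay wholly above the controls in 20.1% and wholly below in 8.18%. The median difference was 0.70 among genes called higher, -0.78 among genes called lower and 0.09 over all genes. Differences of more than 1 on the log2 scale were called in 207 genes upward and 133 downward. With libraries rescaled by a trimmed mean of ratios (TMM), 493 genes were called higher and 556 lower, so that which direction has more calls depends on the scaling. Without control replicate 3, 728 genes were called, 453 higher and 275 lower. Of 135 called genes chosen by the naming rule, 35 lost the call when some 1 library was left out, with an adjusted p then of 0.0501 to 0.171.

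**Figure D1:**
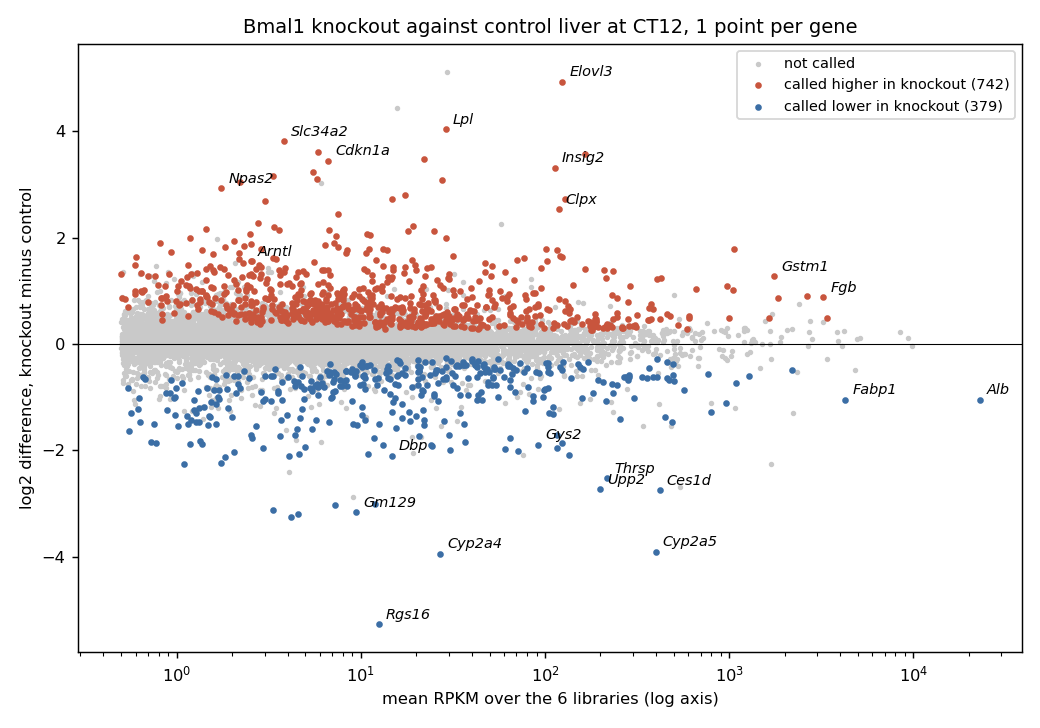
Each point is 1 of 11322 genes, with the mean RPKM over the 6 libraries on a log x axis and the log2 difference (labelled knockout minus control at CT12) on the y axis. The 742 genes called higher are red, the 379 called lower are blue and the others grey. Elovl3 lies at the top of the called genes at 4.94 and Rgs16 at the bottom at -5.28, and Alb lies farthest to the right, at -1.05.

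Promoter sequence is shown for genes of the clock that move in these data and for Alb, whose RNA is the most abundant, because these windows hold the motifs named above. RefSeq promoters (250 bases before to 50 after a start site, build GRCm38.p6) were found for 9059 of the tested genes. The searched motifs were the E-box CACGTG, the D-box TTANNTAA and the core of the REV-ERB/ROR element, TAGGTCA, on both strands. Capitals mark motif matches, positions give the first base of a match with the start site as 0, and no matches overlap in these sequences. Gm129 (Ciart in RefSeq; chr3:95882229-95882478, minus strand) has E-boxes at -116, -58 and -44. Per3 (chr4:151044666-151044915, minus strand) has D-boxes at -205 and -158. One of the starts of Tef (chr15:81802423-81802672, plus strand) has a D-box at -174 and an E-box at -127. Alb (chr5:90460620-90460869, plus strand) has D-boxes at -223 and -204. Of Arntl a stretch of 30 bases just after the start is shown (chr7:113207526-113207555, plus strand), with the REV-ERB/ROR core at 30.
Gm129: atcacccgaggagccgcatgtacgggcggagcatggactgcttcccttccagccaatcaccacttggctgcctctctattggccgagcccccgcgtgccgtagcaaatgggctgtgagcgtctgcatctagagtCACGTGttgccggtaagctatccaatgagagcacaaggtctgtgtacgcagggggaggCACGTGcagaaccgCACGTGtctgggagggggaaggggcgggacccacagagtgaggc
Per3: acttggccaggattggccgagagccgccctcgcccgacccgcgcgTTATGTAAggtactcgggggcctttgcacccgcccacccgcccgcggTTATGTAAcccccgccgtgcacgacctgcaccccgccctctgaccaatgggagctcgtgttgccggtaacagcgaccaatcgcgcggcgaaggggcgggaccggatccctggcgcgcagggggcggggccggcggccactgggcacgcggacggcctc
Tef: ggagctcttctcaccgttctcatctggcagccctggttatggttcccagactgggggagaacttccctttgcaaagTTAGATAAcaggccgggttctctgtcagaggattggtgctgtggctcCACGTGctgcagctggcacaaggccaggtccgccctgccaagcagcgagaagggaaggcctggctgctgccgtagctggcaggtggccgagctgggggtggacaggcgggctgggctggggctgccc
Alb: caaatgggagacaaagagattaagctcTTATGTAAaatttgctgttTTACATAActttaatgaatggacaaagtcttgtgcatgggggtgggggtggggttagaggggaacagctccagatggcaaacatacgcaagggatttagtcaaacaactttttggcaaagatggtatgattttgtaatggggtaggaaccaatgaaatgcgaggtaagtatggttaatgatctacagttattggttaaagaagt
Arntl: agggaaggcagaaagTAGGTCAgggacgga

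Among genes called lower with a promoter in the table, 36 of 299 (12.0%) held a D-box, against 34 of 586 (5.80%) of those called higher and 4.72% of all tested genes. Of genes called lower by more than 1, 16 of 104 (15.4%) held one. An E-box stood in 14.0% of the genes called lower, 12.1% of those called higher and 11.8% of all tested genes. The REV-ERB/ROR core stood in 2.68%, 4.95% and 2.63% of the same sets. Some genes have several start sites in the table and so more chances of a match. Among genes with 1 window, a D-box stood in 9.79% of those called lower, 4.17% of those called higher and 3.63% of all tested. For the E-box these shares were 11.1%, 11.6% and 10.4%, and for the core 2.55%, 3.01% and 2.05%. Over all 32851 windows of the table the shares were 7.15% for the E-box, 6.00% for the D-box and 2.61% for the core. These matches describe the letters of the windows and do not show binding.

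The targeted gene, Arntl, stood at 1.26, 0.680 and 1.21 RPKM in control livers at CT12. In the labelled knockouts it stood at 4.37, 3.59 and 4.01 RPKM, from 183, 138 and 159 recovered reads. All labelled knockouts were thus above all controls, and the gene was called higher (1.55 ± 0.16, adjusted p = 6.21e-05). At CT0 the order was the opposite, with 15.7 to 16.4 RPKM in controls and 5.73 to 7.45 in the labelled knockouts. RPKM is taken over the whole transcript, and RNA that lacks a deleted part still counts, so that the levels at CT12 and CT0 do not check the label. The direction of every difference below therefore rests on the labels, and the 3 livers are called labelled knockouts. In whole liver, fewer cells of a type and less RNA per cell cannot be told apart.

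Of 12 tested E-box clock genes, 6 fell and none rose at CT12 (median -0.88, against 0.09 over all genes and 3.35% called lower). Cry1, whose promoter also has an E-box, at -60, rose and was placed in the REV-ERB-repressed list. The lists were chosen with earlier results of these data known, so these counts are no test. Gm129, which encodes a repressor of the CLOCK and BMAL1 pair, had 14.5, 15.2 and 21.3 RPKM in controls and 0.373, 3.45 and 1.57 in the labelled knockouts. That fall of 3.16 ± 0.41 on the log2 scale (adjusted p = 0.000413) came with no overlap between the groups, although the 3 labelled knockouts were spread widely. Dbp, a PAR bZIP activator, went from 21.7, 33.4 and 17.3 RPKM in controls to 3.29, 8.11 and 4.66. It fell by 2.11 ± 0.29 (adjusted p = 0.000674), with every labelled knockout below every control. Nr1d2, the gene of REV-ERBβ, stood at 17.5, 19.4 and 17.0 RPKM in controls and 2.81, 4.89 and 4.24 in the labelled knockouts (-2.07 ± 0.24).

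The repressor gene Per3 stood at 6.21, 9.22 and 5.57 RPKM in controls and at a narrow 1.63, 1.94 and 1.67 in the labelled knockouts (-1.71 ± 0.19, adjusted p = 0.000154). Tef, the PAR bZIP gene with an E-box in the window above, fell by 0.96 ± 0.11, from 45.1, 45.0 and 46.9 to 21.4, 26.3 and 22.4 RPKM. Control values of Tef were almost equal, so that a difference of this size stood far outside the spread. Per2 had 8.95, 10.8 and 10.1 RPKM in controls and 6.43, 6.08 and 4.18 in the labelled knockouts (-0.80 ± 0.20, adjusted p = 0.028). Per2 was not called without control replicate 2 or 3 or without knockout replicate 2 or 3 (adjusted p 0.0516 to 0.104). Among the 6 members not called, Nr1d1 had 2.35, 2.95 and 1.56 RPKM in controls and 0.969, 1.61 and 1.56 in the labelled knockouts (-0.56 ± 0.37), and the groups overlapped. Bhlhe41 stood at 3.58, 3.48 and 0.100 RPKM in controls and 0.186, 0 and 0.984 in the labelled knockouts, where 1 control lies with the other group (-1.42 ± 0.85). Hlf (-0.55 ± 0.19), Per1 (-0.27 ± 0.38), Bhlhe40 (-0.27 ± 0.21) and Cry2 (0.25 ± 0.15) had overlapping groups. Of the 12 differences 11 were negative, 6 of them called, and Cry2 is the single member with a positive difference.

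**Figure D2:**
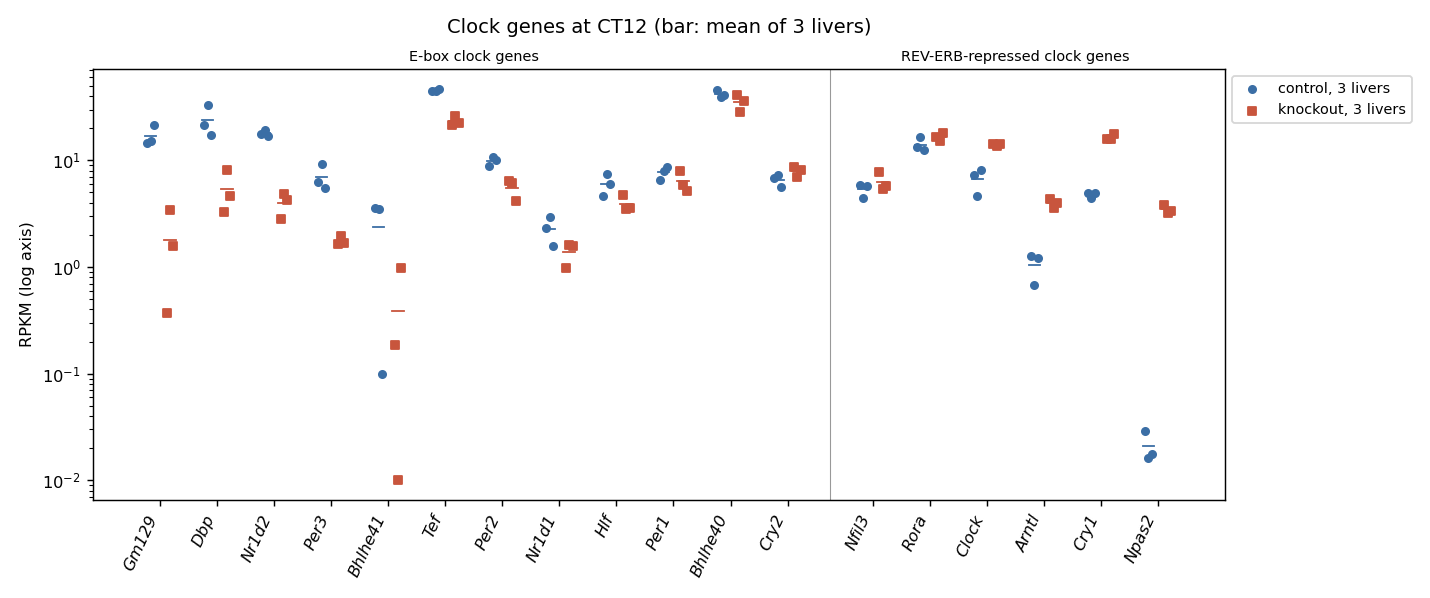
RPKM of 12 E-box clock genes and 6 of the 7 REV-ERB-repressed clock genes in 3 control livers (blue circles) and 3 livers labelled knockout (red squares) at CT12, on a log axis, with a bar at the mean of 3. A value under 0.01 is drawn at 0.01, which holds for 1 library of Bhlhe41 listed at 0. Gm129, Dbp, Nr1d2 and Per3 are lower in all labelled knockouts, and Npas2, Cry1 and Arntl are higher in all of them.

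Of the 7 REV-ERB-repressed clock genes, 5 rose and none fell (median 1.05, where 6.55% of all genes were called higher). Npas2, the alternative partner of BMAL1, was close to 0 in controls, with 0.0293, 0.0161 and 0.0176 RPKM from 2, 1 and 1 recovered reads. The labelled knockouts had 3.85, 3.19 and 3.37 RPKM, from 235, 179 and 195 reads. Npas2 was thus hardly detected in controls and clearly detected in all 3 labelled knockouts (2.93 ± 0.13, adjusted p = 3.09e-07). It passed the filter only through the labelled knockouts, so that its p-value is no independent support. Cry1, a repressor, rose from 4.90, 4.41 and 4.90 RPKM to 16.0, 16.0 and 17.7 (1.71 ± 0.11, adjusted p = 2.15e-06). Clock rose from 7.33, 4.59 and 8.10 RPKM to 14.3, 13.6 and 14.1 (1.05 ± 0.16), so that the labelled knockouts were both higher and closer together. Rora (0.23 ± 0.11) and the repressor gene Nfil3 (0.21 ± 0.16) were not called, and their groups overlapped.

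RNA of both partners of BMAL1 and of Arntl itself was higher while the called genes of the E-box list were lower. Cry1, which is also known as an E-box gene, moved with the REV-ERB-repressed list in which it was placed.

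Of 6 tested REV-ERB-repressed liver outputs, 5 rose and none fell, where 6.55% and 3.35% of all genes tested did. Their median difference, 3.38, was the largest of the lists. Members were chosen with earlier results of these data known, so that this rank is a description and no test. Elovl3, an elongase of very long fatty acids, stood at 7.18, 7.31 and 7.14 RPKM in controls and at 239, 295 and 185 in the labelled knockouts. The groups were separated by an order of magnitude, and the difference was the largest among called genes (4.94 ± 0.16, adjusted p = 1.39e-08). Lpl, which encodes lipoprotein lipase and is low in adult liver, had 3.59, 2.75 and 2.32 RPKM in controls and 59.5, 53.9 and 51.2 in the labelled knockouts (4.05 ± 0.33). Insig2, which retains the SREBP escort protein in the endoplasmic reticulum, rose from 18.5, 14.0 and 28.1 RPKM to 152, 184 and 281 (3.32 ± 0.24). The cell cycle inhibitor gene Cdkn1a rose from 0.227, 0.606 and 1.52 RPKM to 12.8, 10.2 and 14.3 (3.45 ± 0.41, adjusted p = 0.000205). Tubb2a, a tubulin gene whose reads may be shared with Tubb2b, rose from 4.66, 4.26 and 7.86 RPKM to 47.6, 45.4 and 56.1 (3.08 ± 0.29). In these 5 genes the lowest labelled knockout stood far above the highest control. Apoc3, a regulator of triglyceride clearance, stood at a mean of 1135 RPKM in controls and 1363 in the labelled knockouts and was not called (0.26 ± 0.13).

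Of 13 PAR bZIP liver outputs, 10 fell and 1 rose (median -1.53), where 3.35% and 6.55% of all genes tested did. This list too was chosen with earlier results known. Cyp2a5, a P450 of coumarin and nicotine metabolism, went from 879, 622 and 745 RPKM in controls to 52.7, 48.5 and 45.9 in the labelled knockouts. It fell by 3.91 ± 0.20 (adjusted p = 9.54e-07), and Cyp2a4, a steroid hydroxylase close to it in sequence, fell by 3.95 ± 0.24 from 56.9, 38.6 and 57.5 RPKM to 2.42, 3.39 and 2.60. Reads may be shared between these paralogs, so that they may not be separate results. Ces1d, a carboxylesterase that hydrolyses stored triglyceride, fell by 2.75 ± 0.17, from 711, 631 and 843 RPKM to 90.6, 98.8 and 138. Por, the electron donor of microsomal P450 enzymes, stood at 207, 171 and 207 RPKM in controls and 68.3, 46.4 and 47.4 in the labelled knockouts (-1.86 ± 0.21). The lipid-sensing receptor gene Ppara fell by 1.06 ± 0.12, from 56.6, 62.7 and 65.0 RPKM to 24.6, 28.0 and 36.2. Nr1i3, the gene of the xenobiotic receptor CAR, fell by 0.84 ± 0.21 (adjusted p = 0.0226), a call lost without control replicate 3 or knockout replicate 1 or 2 (adjusted p 0.071 to 0.0929). The acyl-CoA thioesterase genes Acot3 (-3.26 ± 0.45) and Acot4 (-1.61 ± 0.32) fell as well, and reads may be shared among them and Acot1. Alas1, the rate-limiting enzyme of heme synthesis, had overlapping groups (-1.14 ± 0.39, adjusted p = 0.0903).

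Cyp2b10, a classical CAR target, went against the rest of that list. It stood at 1.84, 0.598 and 3.85 RPKM in controls and 11.5, 6.76 and 20.4 in the labelled knockouts (2.45 ± 0.56, adjusted p = 0.0153), and was not called without control replicate 2 or knockout replicate 3 (adjusted p 0.0568 and 0.0643). Values varied several-fold within each group, and the lowest labelled knockout stood less than 2-fold above the highest control.

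**Figure D3:**
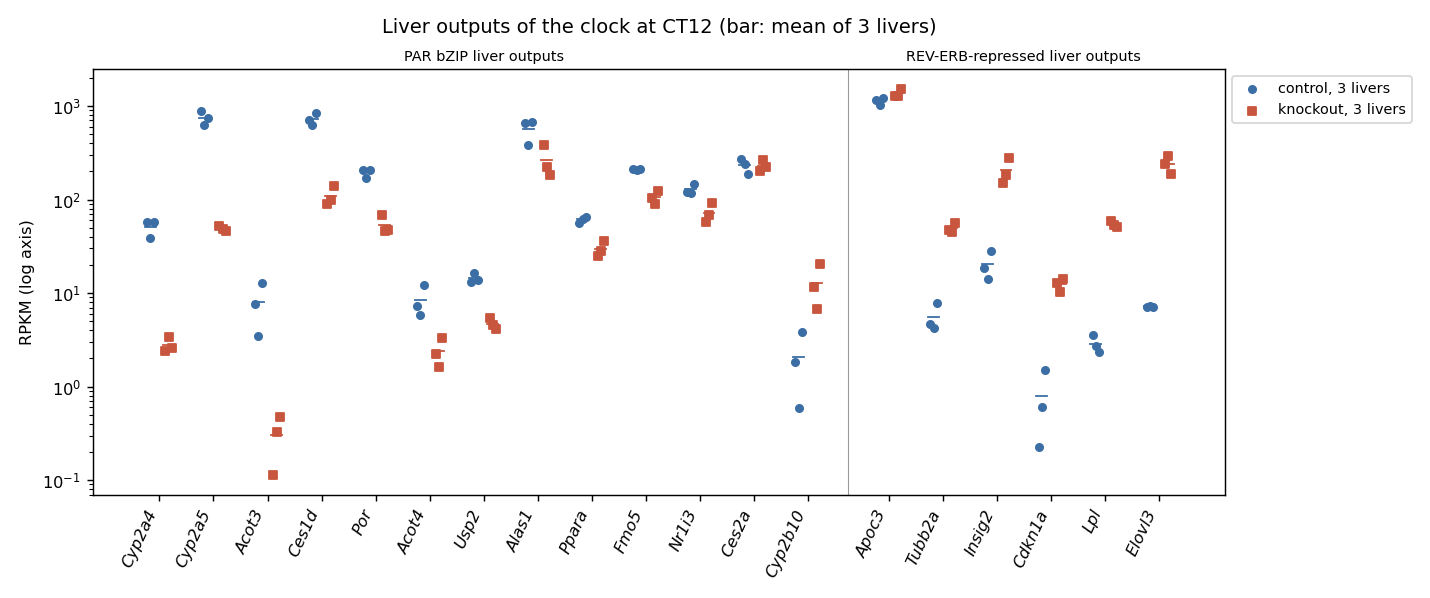
RPKM of 13 PAR bZIP liver outputs and 6 REV-ERB-repressed liver outputs in 3 control livers (blue circles) and 3 livers labelled knockout (red squares) at CT12, on a log axis, with a bar at the mean of 3. Cyp2a4, Cyp2a5 and Ces1d fall and Cyp2b10 rises on the left, while 5 of the 6 genes on the right rise.

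Among the genes with the largest differences outside these lists, Rgs16, which ends signalling of G protein-coupled receptors, had 34.5, 17.4 and 22.7 RPKM in controls and 0.178, 0.0323 and 0.188 in the labelled knockouts (-5.28 ± 0.87, adjusted p = 0.00242). Its RNA was near the limit of detection in all labelled knockouts, and it passed the filter only through the controls. No fall among called genes was larger. Upp2, a uridine phosphorylase, fell by 2.73 ± 0.19, from 372, 337 and 325 RPKM to 45.7, 62.6 and 47.8. The fibrillar collagen gene Col27a1 (-3.20 ± 0.30), the acetyltransferase gene Nat8 (-3.13 ± 0.26), Cml5 (-3.03 ± 0.51) and D0H4S114 (-3.01 ± 0.30) fell by a like amount. Nrg4, a secreted ligand of ErbB receptors, fell by 2.10 ± 0.27, from 7.69, 6.68 and 6.19 RPKM to 1.37, 1.61 and 0.760. Falls of AC148977.1 (-2.25 ± 0.23), the transporter gene Slc22a26 (-2.24 ± 0.43), AI428936 (-2.13 ± 0.54) and the steroid hydroxylase gene Cyp17a1 (-2.03 ± 0.54) rested on low RPKM. Of these, AI428936 was called among the 6 removals of a library only without control replicate 3 (adjusted p otherwise 0.0503 to 0.0853), and Cyp17a1 only without control replicate 1 (otherwise 0.051 to 0.126).

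In the other direction, Slc34a2, a sodium-phosphate cotransporter, was at 0.0992, 0.0363 and 0.0795 RPKM in controls and 7.03, 8.30 and 7.34 in the labelled knockouts (3.82 ± 0.23). Ntrk2, the BDNF receptor gene, likewise stood at or under 0.136 RPKM in controls and at 3.66, 5.05 and 4.24 in the labelled knockouts (3.04 ± 0.24). Both genes were hardly detected in any control and passed the filter only through the labelled knockouts. Loxl4, a lysyl oxidase of collagen crosslinking, rose by 3.61 ± 0.24, Spon2, an extracellular matrix protein gene, by 3.23 ± 0.23, and Defb1, a defensin gene, by 3.16 ± 0.43. Grk5, a receptor kinase gene, rose by 3.10 ± 0.18, from 1.06, 0.516 and 0.848 RPKM to 8.06, 11.8 and 12.2. Ndrg1 (2.80 ± 0.24) and the serpin adipokine gene Serpina12 (2.72 ± 0.47) rose too. Sult1e1, the estrogen sulfotransferase, ran from 0.148 to 0.414 RPKM in controls and stood at 11.5, 4.74 and 1.22 in the labelled knockouts (2.70 ± 0.76, adjusted p = 0.0422). Sult1e1 also passed the filter only through the labelled knockouts. Its call was lost with TMM scaling and on removal of each library other than knockout replicate 3 (adjusted p 0.0878 to 0.133).

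Among the 29 tested drug-metabolizing P450 genes and their receptors, 5 rose and 5 fell (3 and 6 with TMM scaling), with a median of -0.03. In the main fit, 6.55% of all genes tested rose and 3.35% fell. Leaving out 1 library gave between 3 and 6 in either direction. Cyp2c55 rose most, from 3.98, 4.92 and 1.50 RPKM to 32.4, 46.5 and 42.8 (3.48 ± 0.32, adjusted p = 3.99e-05). The abundant Cyp2c29 rose by 1.02 ± 0.17, from 831, 591 and 654 RPKM to 1581, 1240 and 1366. Rises of Cyp2c70 (0.66 ± 0.17) and Cyp2d22 (0.31 ± 0.09) were lost with TMM scaling and without several single libraries (adjusted p 0.0904 to 0.162), for both without control replicate 2 or 3 or knockout replicate 1 or 2 and for Cyp2d22 also without knockout replicate 3. Beside Cyp2a4, Cyp2a5, Por and Nr1i3, Cyp2d26 was called lower (-0.44 ± 0.13, adjusted p = 0.0447), though not without control replicate 1 or 3 or knockout replicate 1 or 2 (0.0904 to 0.169). Changes of P450 genes were thus large in both directions, without a common direction for the list.

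Glutathione transferases of the mu class rose together. Of 24 tested genes of glutathione transferases and NRF2 targets, 8 rose and 3 fell (median 0.22), where 6.55% and 3.35% of all genes did. Gstm genes were 7 of the 8 that rose, counting Gstm4, which was added after its value was seen. Gstm3 went from 29.0, 32.5 and 15.3 RPKM to 257, 426 and 233 (3.57 ± 0.38), and Gstm2 from 41.9, 25.8 and 33.3 RPKM to 206, 249 and 216 (2.74 ± 0.23). Gstm1, the most abundant of them, rose from 1098, 1074 and 910 RPKM to 2272, 2702 and 2512 (1.28 ± 0.14). Gstm6 (1.64 ± 0.13), Gstm7 (1.20 ± 0.14), Gstm5 (0.75 ± 0.14) and Gstm4 (0.74 ± 0.15) rose less. Reads may be shared within this family, so that these are not 7 separate measurements. The eighth gene was the heme oxygenase gene Hmox1 (0.50 ± 0.14), a call lost with TMM scaling and on removal of each library other than control replicate 1 (adjusted p 0.0837 to 0.171). The 3 members called lower were Gstt2 (-1.73 ± 0.48), Gsta2 (-1.50 ± 0.32) and Gsta3 (-0.73 ± 0.13), transferases of the theta and alpha classes, and 13 members were not called. Gstt2 was not called without control replicate 1 or 3 or knockout replicate 1 or 2 (adjusted p 0.0923 to 0.125). Without knockout replicate 3, 5 genes of the list were called lower. The NRF2 gene Nfe2l2 (0.17 ± 0.12) and its target Nqo1 (0.28 ± 0.15) were not called.

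Cholesterol synthesis genes were called in 1 direction: 10 of 20 tested rose, none fell, and 19 of 20 differences were positive (median 0.73). Shares over all genes tested were 6.55% called higher and 3.35% called lower. Hmgcs1, the first enzyme committed to the pathway, had 32.5, 57.1 and 48.8 RPKM in controls and 186, 158 and 129 in the labelled knockouts (1.78 ± 0.27, adjusted p = 0.00119). Mvk, mevalonate kinase, rose from 11.8, 11.6 and 10.5 RPKM to 22.9, 19.4 and 21.1 (0.88 ± 0.15). Fdft1, squalene synthase, rose by 0.84 ± 0.15, Cyp51, lanosterol demethylase, by 0.86 ± 0.20, Sc4mol, methylsterol oxidase, by 0.84 ± 0.20 and Idi1, isopentenyl diphosphate isomerase, by 0.80 ± 0.17. The number of calls in this list fell to 4 without control replicate 1, knockout replicate 1 or knockout replicate 2, and to 5 without control replicate 3. Cyp51 and Sc4mol were not called without any of these 4 libraries (adjusted p 0.0501 to 0.0728). Knockout replicate 1 had the highest RPKM of each of the 6 genes named as risen. Of 14 tested genes of sterol sensing, uptake and efflux, Insig2 alone was called, beside 9.90% of all genes tested. Srebf2 (0.40 ± 0.14) was not called.

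Lipogenesis genes leaned the other way, with 5 of 21 tested called lower, none higher and a median of -0.91. All genes tested had 3.35% called lower and 6.55% higher. Thrsp, a lipogenic regulator, stood at 348, 505 and 248 RPKM in controls and 105, 45.1 and 46.8 in the labelled knockouts (-2.53 ± 0.68, adjusted p = 0.036). Among the 6 removals of a library, Thrsp was called only without knockout replicate 1 (otherwise adjusted p 0.0617 to 0.115). Srebf1, the master regulator of fatty acid synthesis, had 58.8, 106 and 60.0 RPKM in controls and 39.7, 36.3 and 31.4 in the labelled knockouts (-1.0 ± 0.21, adjusted p = 0.00954). The glucose-sensing factor gene Mlxipl fell by 0.96 ± 0.23, the desaturase gene Fads2 by 1.07 ± 0.14 and the phosphatidate phosphatase gene Lpin2 by 0.91 ± 0.21. Control replicate 2 had the highest RPKM of Thrsp, Srebf1, Mlxipl and Lpin2, but not of Fads2. Without control replicate 2 or knockout replicate 2 the list had 2 calls, and without replicate 3 of either group it had 3. Mlxipl lost its call without control replicate 2 or knockout replicate 2 or 3 (adjusted p 0.0594 to 0.0757), and Lpin2 without control replicate 2 or 3 or knockout replicate 2 (0.0539 to 0.0726). Fatty acid synthase, Fasn (-0.90 ± 0.61), and the desaturase gene Scd1 (-1.10 ± 0.48) were not called, and Fasn had overlapping groups.

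In fatty acid oxidation and ketogenesis, 8 of 26 tested genes fell, 2 rose and 22 differences were negative (median -0.32). Falls were called in 3.35% of all genes tested and rises in 6.55%. The peroxisomal thiolase genes Acaa1b and Acaa1a fell by 1.41 ± 0.25 and 1.0 ± 0.15. Acaa1b stood at 337, 292 and 480 RPKM in controls and 108, 119 and 194 in the labelled knockouts, with no overlap. Ppara, described above, is the receptor that drives many of these genes and counts in this list too. The mitochondrial genes Decr1 (-0.62 ± 0.16) and Acadl (-0.47 ± 0.13) were called as well. Pdk4, a brake on glucose oxidation, rose from 0.961, 0.841 and 0.984 RPKM to 3.24, 3.88 and 3.78 (1.53 ± 0.26). Crot, which exports chain-shortened acyl groups from peroxisomes, rose from 118, 104 and 163 RPKM to 222, 343 and 462 (1.38 ± 0.30, adjusted p = 0.0126), and was not called without knockout replicate 3 (0.0523). Without control replicate 1 or 3 or knockout replicate 1 or 2, 4 genes of the list were called lower, and Decr1 and Acadl were not among them (adjusted p 0.0737 to 0.17).

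Of 10 tested acyl-CoA thioesterase genes, 5 fell and none rose (median -0.60), where 3.35% and 6.55% of all genes did. Beside Acot3 and Acot4, Acot1 fell by 1.94 ± 0.45, Acot7 by 0.69 ± 0.11 and Acot13 by 0.50 ± 0.10. Acot1 was not called without control replicate 1 or 3 or knockout replicate 1 or 2 (adjusted p 0.0581 to 0.0729). Of 11 Cyp4 fatty acid hydroxylases, 1 was called, where 9.90% of all genes tested were called. That gene, Cyp4a10, had 210, 80.3 and 359 RPKM in controls and 22.5, 32.4 and 105 in the labelled knockouts (-2.08 ± 0.59, adjusted p = 0.0436). The groups overlapped for Cyp4a10, and its call was lost without the same 4 libraries (adjusted p 0.115 to 0.163).

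Lipid droplet and lipoprotein genes had 2 rises and 4 falls among 23 tested (median -0.03). Over all genes tested, 6.55% were called higher and 3.35% lower. Beside Lpl, the hepatic lipase gene Lipc rose from 60.7, 64.9 and 63.7 RPKM to 91.6, 95.3 and 115 (0.66 ± 0.12). Fitm1, which partitions triglyceride into droplets, fell from 8.38, 6.96 and 7.85 RPKM to 1.79, 0.779 and 2.04 (-2.07 ± 0.21). The monoacylglycerol lipase gene Mgll (-1.05 ± 0.22) and Fitm2 (-0.61 ± 0.14) fell with it. Fabp1, a fatty acid carrier among the most abundant RNAs, stood at 5242, 5371 and 6457 RPKM in controls and 1828, 3027 and 3695 in the labelled knockouts (-1.05 ± 0.29, adjusted p = 0.0395). That call was lost with quantile normalization and on removal of each library other than knockout replicate 3 (adjusted p 0.0746 to 0.131). Fitm2 lost its call without control replicate 1 or 3 or knockout replicate 1 (adjusted p 0.0531 to 0.0692), and 2 genes of the list were then called lower. Without knockout replicate 1, 4 genes of the list were called higher.

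In glucose and glycogen metabolism, 2 of 23 tested genes rose and 4 fell (median -0.14), where 6.55% and 3.35% of all genes did. Gys2, liver glycogen synthase, stood at 157, 137 and 140 RPKM in controls and 34.5, 41.4 and 40.2 in the labelled knockouts (-1.89 ± 0.13, adjusted p = 3.22e-06). Both groups were tight, and the means differed 3.74-fold. Slc2a2, the glucose transporter GLUT2, fell from 160, 164 and 124 RPKM to 57.0, 44.2 and 85.1 (-1.30 ± 0.27). The glycogen branching enzyme gene Gbe1 fell less (-0.78 ± 0.20), and was called among the 6 removals of a library only without control replicate 3 (otherwise adjusted p 0.0533 to 0.112). Ppp1r3c, a glycogen-targeting subunit of protein phosphatase 1, rose from 9.62, 8.14 and 17.3 RPKM to 54.2, 35.1 and 49.8 (1.99 ± 0.26). Irs2, an adaptor of the insulin receptor, rose from 1.53, 1.46 and 0.760 RPKM to 4.15, 4.02 and 3.24 (1.33 ± 0.24). The gluconeogenic gene Pck1 was not called (-0.13 ± 0.23).

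Among 17 genes of bile acid synthesis and transport, 2 rose and 2 fell, beside 6.55% and 3.35% of all genes tested. Hsd3b7, an enzyme of the steroid ring, rose from 103, 108 and 135 RPKM to 266, 310 and 330 (1.39 ± 0.13). Abcb11, the bile salt export pump, rose from 93.9, 88.9 and 88.4 RPKM to 171, 205 and 209 (1.10 ± 0.11). The transporter genes Slco1a1 (-0.64 ± 0.17) and Abcc2 (-0.36 ± 0.09) were called lower, of which Slco1a1 lost its call without control replicate 1 or 2 or knockout replicate 1 or 3 and Abcc2 on removal of each library other than control replicate 1 (adjusted p 0.055 to 0.12). Cyp7a1, which starts the classical route from cholesterol to bile acids, was not called (-0.54 ± 0.27). Of 13 genes of heme synthesis and turnover, 4 rose and 2 fell, with 2 to 4 and 1 to 2 when a library was left out. Clpx, a mitochondrial chaperone that acts on ALAS1, rose most of these, from 33.3, 31.0 and 38.3 RPKM to 186, 178 and 245 (2.54 ± 0.15, adjusted p = 2.00e-06).

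Of 23 acute phase genes tested, 7 rose, among them all 3 fibrinogen chains, 1 fell and 15 were not called (median 0.30). Rises were called in 6.55% of all genes tested and falls in 3.35%. Fgb, the fibrinogen β chain, had 2565, 2233 and 2007 RPKM in controls and 5186, 3478 and 3982 in the labelled knockouts (0.88 ± 0.19, adjusted p = 0.0111), and was not called without control replicate 3 (0.0503). The α and γ chain genes Fga (0.87 ± 0.17) and Fgg (0.91 ± 0.17) rose by a like amount. Apcs, serum amyloid P (1.43 ± 0.22), Itih3 (1.09 ± 0.16), the ceruloplasmin gene Cp (1.03 ± 0.11) and Lbp, the lipopolysaccharide binding protein (0.95 ± 0.15), rose too. Saa4, a constitutive serum amyloid, fell by 1.26 ± 0.17, from 107, 107 and 117 RPKM to 44.4, 50.3 and 42.5. The classical inducible genes Saa1 (-0.84 ± 0.75) and Lcn2 (1.32 ± 0.55) were not called. Without knockout replicate 1, 4 genes of the list were called lower. Summed RPKM of the 10 neutrophil markers was 6.99 to 9.84 in controls and 19.6 to 48.2 in the labelled knockouts, that of the 7 erythroid markers was 108 to 190 and 246 to 307, and their part in the acute phase result was not tested.

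The genes that gained or lost most RPKM shift the make-up of the library. Bhmt, a methyltransferase of methionine metabolism, rose from 664, 361 and 432 RPKM to 1737, 1250 and 1965 (1.79 ± 0.24). Apoh (0.50 ± 0.10) and the complement gene C3 (0.48 ± 0.13) were called higher, Apoh not with quantile normalization and C3 not with TMM scaling, quantile normalization or any 1 of the 6 libraries removed (adjusted p 0.0544 to 0.103). Alb, serum albumin, stood at 34270, 26610 and 31840 RPKM in controls and 14010, 14230 and 16370 in the labelled knockouts (-1.05 ± 0.14, adjusted p = 0.000524). Its share of all RPKM was 6.09% to 7.35% in controls and 3.20% to 3.57% in the labelled knockouts. Quantile normalization sets the top-ranked gene equal in all libraries, so that Alb differed by 0.00 there. Uox, urate oxidase (-1.10 ± 0.13), the carbonic anhydrase gene Car3 (-1.27 ± 0.20), Inmt (-1.48 ± 0.12), alcohol dehydrogenase Adh1 (-0.60 ± 0.10) and Sepp1, selenoprotein P (-0.50 ± 0.11), were the other large losses. Sepp1 was not called when only the 6 CT12 libraries were fitted.

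The remaining lists stand beside shares of 6.55% called higher and 3.35% called lower over all genes tested. The thyroid hormone deiodinase gene Dio1 fell from 44.5, 63.5 and 64.4 RPKM to 12.4, 19.1 and 15.5 (-1.84 ± 0.16), and Stat5b, the transducer of growth hormone signals, rose by 0.66 ± 0.12, the 2 calls among 17 genes of that axis. Among 21 tested genes of the cell cycle, Ccng2 (1.14 ± 0.17) rose with Cdkn1a, and the clock-controlled kinase gene Wee1 fell from 6.42, 7.19 and 7.22 RPKM to 1.64, 3.07 and 2.49 (-1.39 ± 0.22). The stress sensor gene Gadd45a was called lower at the edge of the threshold (-1.04 ± 0.30, adjusted p = 0.0499) and, among the 6 removals of a library, only without control replicate 1 (otherwise 0.0835 to 0.157). Of 19 heat shock and folding genes, Hspb1 alone was called (-1.43 ± 0.33), a call lost without control replicate 1 or 2 or knockout replicate 1 (adjusted p 0.0565 to 0.0617). None of 10 immediate-early genes was called by limma, by limma voom on recovered reads or at an unadjusted p under 0.05.

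**Figure D4:**
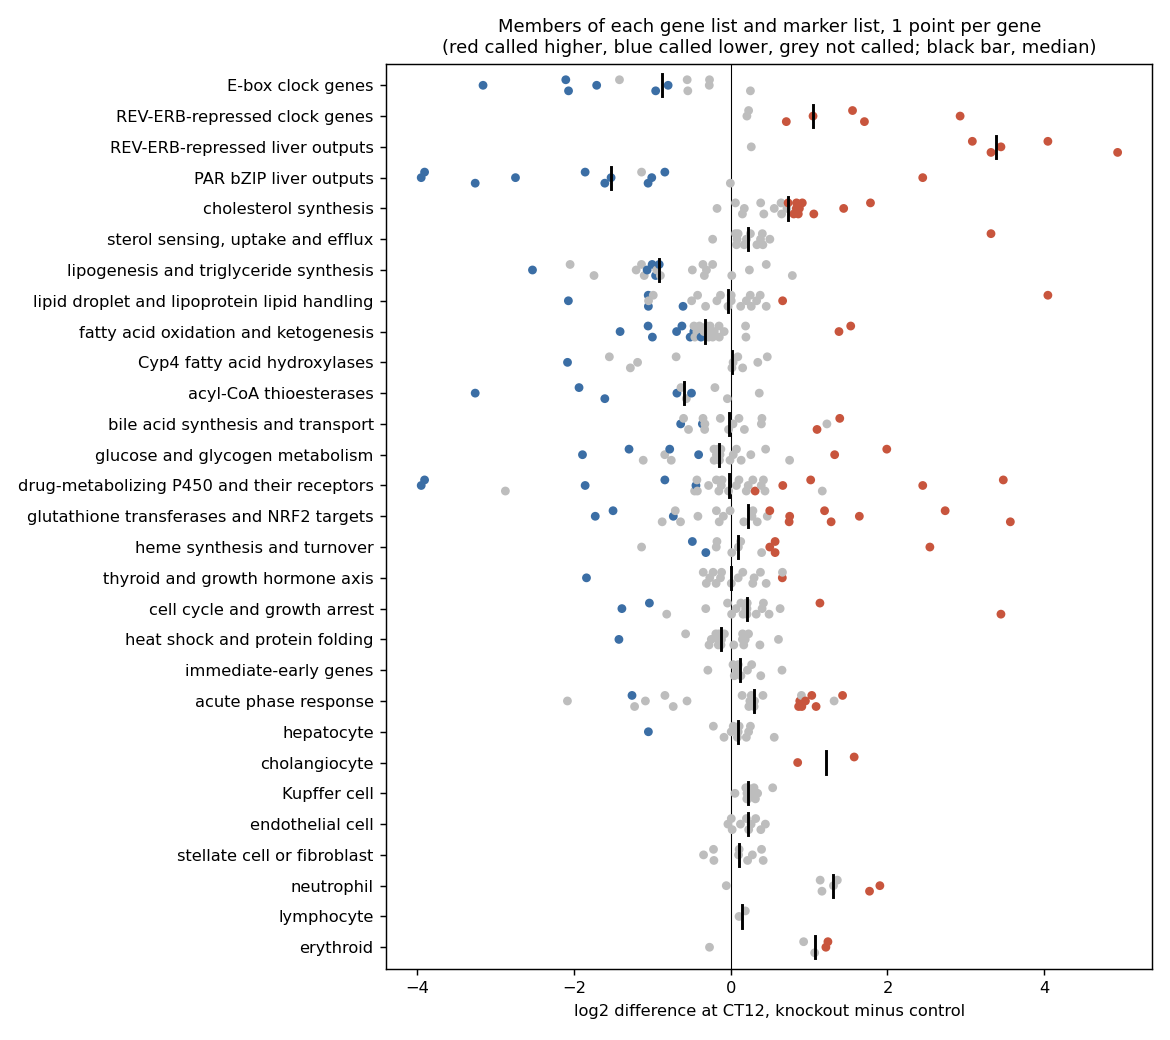
Log2 difference (labelled knockout minus control at CT12) of each tested member of 21 pathway lists and of the marker lists with 2 or more tested members, 1 point per gene. Red points were called higher, blue lower and grey not called, and the black bar is the list's median, which is 3.38 for REV-ERB-repressed liver outputs, -1.53 for PAR bZIP outputs and -0.88 for E-box clock genes.

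Hepatocyte markers summed to 52450 to 62370 RPKM in controls and 42410 to 46590 in the labelled knockouts, so that both groups read as liver. Beside each count of markers here stand 6.55% of all genes tested called higher and 3.35% called lower. By limma, 2752 of the 11322 genes tested had an unadjusted p under 0.05. Of 12 hepatocyte markers, 11 were not called and Alb fell. None of 11 Kupffer cell markers, 10 endothelial markers, 9 stellate cell markers and 2 lymphocyte markers was called by limma or by limma voom on recovered reads. At an unadjusted p under 0.05 there were 0, 1, 2 and 0 genes in these lists, and 4 endothelial markers were called higher without knockout replicate 1. Spp1, the osteopontin gene, rose from 32.5, 47.7 and 26.5 RPKM to 121, 106 and 87.0 (1.58 ± 0.22), and Sox9 from 0.210, 0.313 and 0.162 RPKM to 0.788, 0.950 and 0.708 (0.85 ± 0.17). Both are cholangiocyte markers, but Sox9 was under 0.5 RPKM in all controls and passed the filter only through the labelled knockouts. The defining markers Krt19, Krt7, Epcam and Cftr were under the filter, at or below 0.918 RPKM in all 6 libraries. Of 7 tested neutrophil markers, S100a8 (1.90 ± 0.45) and S100a9 (1.77 ± 0.40) rose, with limma voom calling neither, and 6 of the 7 had an unadjusted p under 0.05. Without knockout replicate 3, 4 of the 7 were called higher. Both were not called without control replicate 2 or knockout replicate 1, and S100a9 not without knockout replicate 2 either (adjusted p 0.0523 to 0.0675). Ly6g was at 0 in all libraries but 1. Mpo and Elane were under the filter, and all labelled knockouts stood above all controls, with 0.0929 to 0.141 RPKM in controls and 0.365 to 0.547 in the labelled knockouts for Mpo, and 0 to 0.324 and 0.398 to 0.754 for Elane. Of 5 tested erythroid markers, the globin genes Hba-a2 (1.21 ± 0.27) and Hbb-b2 (1.24 ± 0.30) rose, and reads may be shared among globin genes. Among the 6 removals of a library, Hbb-b2 was called only without control replicate 2 (otherwise adjusted p 0.0506 to 0.0771). Adipocyte and pancreatic acinar markers were all under the filter, 3 and 5 of them at 0 in all 6 libraries.

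Whether the effect of the knockout label differed between CT12 and CT0 was tested as a difference of the 2 effects, over separate livers. It was called in 159 genes, 1.40% of those tested, 117 with a more positive effect at CT12 and 42 with a more negative one. Of the 159, 152 were also called at CT12 and 148 had the larger effect there. The count was 81 to 105 without control replicate 1, 2 or 3 or knockout replicate 3 of CT0, or without control replicate 1 or 3 or knockout replicate 2 or 3 of CT12, and 127 to 143 without any other 1 library. Elovl3 shows the pattern most plainly: at CT0 controls had 84.5 to 118 RPKM and the labelled knockouts 84.0 to 97.6, while at CT12 controls had 7.14 to 7.31 RPKM and the labelled knockouts 185 to 295. The genotypes overlapped at CT0 (-0.09 ± 0.16) and were 4.94 apart at CT12, a difference of 5.02 ± 0.23 (adjusted p = 6.55e-07). Clpx differed by 2.40 ± 0.21 between the times, from 0.14 ± 0.15 at CT0 to 2.54 ± 0.15 at CT12. Gys2 (-0.06 ± 0.13 at CT0, -1.89 ± 0.13 at CT12) and Nampt, the rate-limiting enzyme of NAD salvage (0.14 ± 0.11 and -1.45 ± 0.11), behaved likewise in the other direction.

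Some clock genes changed sign between the times. Tef was 0.98 ± 0.11 higher in the labelled knockouts at CT0 and 0.96 lower at CT12, and the effects differed (-1.94 ± 0.16, adjusted p = 0.000143). Per3 did the same, with 0.96 ± 0.19 at CT0 and -1.71 ± 0.19 at CT12 (difference -2.67 ± 0.27). From CT0 to CT12, Tef went from 15.5 to 19.6 RPKM up to 21.4 to 26.3 in the labelled knockouts, and from 7.69 to 9.37 up to 45.0 to 46.9 in controls. Cry1 differed from control by a like amount at both times (1.73 ± 0.11 and 1.71 ± 0.11, difference -0.02 ± 0.15). Dio1 was further below control at CT0 (-3.09 ± 0.16) than at CT12 (difference 1.25 ± 0.22). For Gstm1 (0.05 ± 0.19 of difference), Gstm2, Gstm3, Cyp2c55, Ces1d and Alb the difference of the effects was not called.

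**Figure D5:**
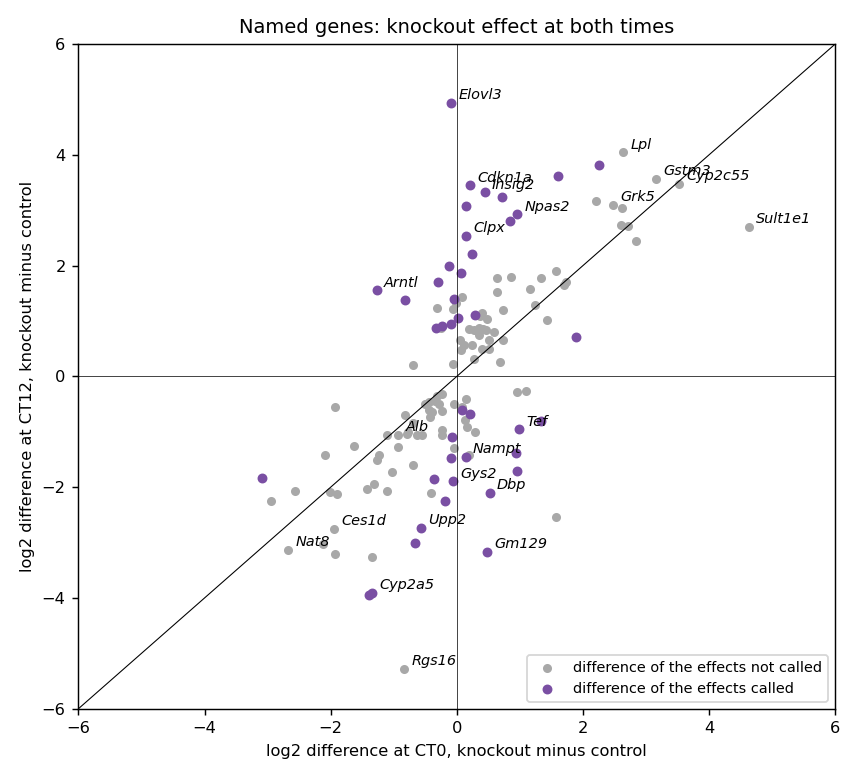
Log2 difference (labelled knockout minus control) at CT0 on the x axis and at CT12 on the y axis for the 143 named genes, with the line of equal effects. Purple points have effects that differ by the test, adjusted p under 0.05, and they include Elovl3 at the top with -0.09 at CT0 and 4.94 at CT12. Gstm3 and Cyp2c55 lie near the line.

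In livers labelled Nr1d1 knockout at CT12, which have their own controls and 2 livers per group, 6 genes were called (0.053%). That fit had the replicate number as a block and also held the Nr1d1 control and knockout livers of CT0. All 6 were called in the same direction in livers labelled Bmal1 knockout, which is 100% of the 6 and 0.535% of the 1121. Arntl had 0.597 and 1.30 RPKM in controls of replicates 1 and 2 and 8.00 and 19.3 in the livers labelled Nr1d1 knockout (3.21 ± 0.31, adjusted p = 0.0272), beside the 1.55 given above. Chka, choline kinase, differed by 2.02 ± 0.22 there and by 2.21 ± 0.14 in livers labelled Bmal1 knockout. Lpl differed by 2.23 ± 0.24 there and 4.05 ± 0.33 here, and D0H4S114 by -2.34 ± 0.20 and -3.01 ± 0.30. Ethe1, a sulfur dioxygenase gene (1.69 ± 0.18 and 1.40 ± 0.13), and St5 (1.70 ± 0.20 and 1.18 ± 0.08), both outside the naming rule and named after their values were seen, completed the set. Replicate 2, alone labelled paired-end, had higher RPKM of all 6 genes in both genotypes. Its summed RPKM was higher too, at 2090190 in the control and 2106201 in the labelled knockout, against 725547 and 582305 in replicate 1. RPKM of the 2 replicates is therefore not on 1 scale. The calls of all 6 rested on the block: without it limma called none, with 7 genes at an unadjusted p under 0.05, and without control replicate 1 or knockout replicate 2 none was called either, against 1 without knockout replicate 1 and 4 without control replicate 2.

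Values of clock arms in the 2 experiments stood apart for some genes, though these differences between experiments were not tested. Elovl3 had 1.28 and 5.35 RPKM in Nr1d1 controls and 2.63 and 3.28 in livers labelled Nr1d1 knockout (0.09 ± 1.45), where the 2 pairs went in opposite directions. Gm129 (0.02 ± 0.25), Dbp (-0.01 ± 0.28) and Tef (-0.10 ± 0.22) had values near 0 there. Cdkn1a had 0.394 and 0.883 RPKM in Nr1d1 controls and 9.09 and 14.8 in the labelled Nr1d1 knockouts (3.44 ± 0.64) without a call, a size close to the 3.45 in livers labelled Bmal1 knockout.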

How the data were processed

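Libraries were made from liver total RNA with the Illumina TruSeq RNA Sample Prep Kit v2, per the labels' protocols. The authors deposited RPKM, 1 value per transcript and library. TopHat2, Bowtie and bedtools 2.19.1 are named with build mm9 in the submitters' processing notes. Their roles, the annotation, filters and strand setting are not stated there, so that reads of overlapping, antisense or near-identical genes may be mixed.

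Tables were joined on 46585 transcripts with 22322 symbols, and the transcript with the highest mean log2(RPKM + 0.5) in the 6 CT12 libraries stood for its symbol. Genes averaging 0.5 RPKM or more there were tested with limma 3.58.1 (lmFit, contrasts.fit, eBayes with a mean trend) in R 4.3.3, with 4 group means over the 12 Bmal1 libraries, two-sided. The method was tested on simulated data. Nr1d1 libraries were fitted apart, with replicate number as a block. Whole reads were recovered, up to a common factor, within a tolerance of 0.05 reads for 95.0% of 16691 genes, 99.0% of those tested. At most 0.006% of values were shared exactly by 2 libraries.

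Named genes were Arntl, the 20 called genes with the largest rises and the 20 with the largest falls without overlap, the 10 with the largest RPKM gains and the 10 with the largest losses, the clock lists, up to 6 called members per direction and up to 2 uncalled members of other lists, and the 10 genes with the smallest adjusted p for the difference of effects. The members and the 21 pathway and 10 marker lists were chosen with earlier results of these data known, so lists are described and not tested. Alternatives changed the pseudocount, filter, scaling, transcript summary, block, libraries and model. Some members of the lists count in the totals but are not reported here by name.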

Additional observations from a re-analysis of the deposited data

Results flagged for a closer look

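The effect of the knockout label at CT12 differed from that at CT0 in 159 genes by limma, and the 10 with the smallest adjusted p are given here as the log2 difference at CT12 minus that at CT0. Elovl3 differed by 5.02, Arntl by 2.82, Clpx by 2.40, Avpr1a, the vasopressin receptor gene of liver, by 2.00, Chka by 1.97, Npas2 by 1.97 and Slc30a10, a manganese exporter gene, by 1.79. Tef differed by -1.94, Gys2 by -1.83 and Nampt by -1.60. In 9 of these genes, which were filtered by RPKM at CT12 alone, the effect at CT12 was larger than that at CT0. Tef had effects of similar size and opposite sign. Avpr1a stood at 3.60, 3.88 and 3.41 RPKM in controls and 12.9, 14.7 and 11.5 in the labelled knockouts at CT12, and at 15.5 to 18.7 and 12.9 to 15.9 at CT0. Slc30a10 stood at 2.40, 2.67 and 2.38 RPKM in controls and 10.7, 9.18 and 11.2 in the labelled knockouts at CT12, and at 10.2 to 11.2 and 10.0 to 13.3 at CT0.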

How the results depend on the processing

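The count of 1121 genes called at CT12 was 1121 and 1115 with pseudocounts of 0.1 and 1, 785 with no filter (of 22322 genes), 1037 with a filter at 2 RPKM, 1177 with transcripts summed, 1049 with TMM scaling (493 higher, 556 lower), 1063 with quantile normalization (557 higher, 506 lower) and 880 with only the 6 CT12 libraries. Without 1 library it ran from 728 to 911. At CT12, same-numbered control and knockout libraries deviated together with r of 0.01, 0.12 and 0.11, and differently numbered ones with r of -0.16 to 0.06. Values this few and small do not decide whether the replicate numbers pair the livers. With the replicate block, 1063 genes were called at CT12 and 134 for the difference between times. Chosen after seeing the data, the 6 libraries with the replicate block gave 860 and limma voom on recovered reads 1005 (455 higher, 550 lower).

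The 159 genes whose effect differed between times became 75 with no filter and 81 to 143 without 1 library. The other settings gave 134 to 173, with 151 for TMM scaling and 173 for voom. The 6 calls in the Nr1d1 livers became 0 without the block and 0 with no filter, where 7 and 676 genes had an unadjusted limma p under 0.05, and 0 to 4 without 1 library. Only Nr1d1 libraries of CT12 were left out in turn, which leaves 1 sample of a group of 2, assumed to vary like the others. The edgeR alternative was not run.

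Of 135 called named genes, 86 were called in all 17 settings, 35 lost the call without some library, and none reversed. With only the 6 CT12 libraries in the fit, Acadl, Cyp2d22, Cyp2d26, Cyp4a10, Decr1, Gstt2, Hmox1 and Sepp1 were among those not called. Depth limits genes with few reads: 44 of the 1121 called genes had under 20 reads per library, beside 896 of the 11322 tested.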

Other observations

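At CT12, 10 genes differed by more than 2 on the log2 scale without being called, and they were looked at after their values were seen. Klhdc1 was at or under 0.130 RPKM in the 3 control livers at CT12 and at 0.476, 69.4 and 107 RPKM in the labelled knockouts. At CT0 it stood at 0.0768, 0.241 and 114 RPKM in the labelled knockouts and at 0.162 to 1.35 in controls. Livers labelled knockout therefore fell into 3 with Klhdc1 near 0 and 3 with high values, with no liver between. Lrr1 followed the same livers, with 0.185, 37.2 and 57.3 RPKM at CT12 and 0, 0 and 61.0 at CT0, and so did Klhdc2, with 20.1, 114 and 166 RPKM at CT12 and 16.3, 16.0 and 172 at CT0. Klhdc1 and Klhdc2 are neighbours in the RefSeq gene table (GRCm38.p6), and Lrr1 lies 5 protein-coding genes from Klhdc1. Rpl36al, between Lrr1 and Klhdc1, did not follow, with 117 to 126 RPKM in controls and 123 to 138 in the labelled knockouts at CT12. Pole2, also between them, was at 0.201 to 0.402 RPKM in controls and 1.19, 3.97 and 3.80 in the labelled knockouts at CT12, and at 0.990, 0.414 and 3.35 in the labelled knockouts at CT0, where 1 control stood at 4.78. In the Nr1d1 experiment Klhdc1 stood at 11.5 to 59.8 RPKM in all 4 livers of replicate 1, of both genotypes and both CT0 and CT12. It stood at 0.237 to 0.618 in those of replicate 2. Pole2 stood there at 10.2 to 522 RPKM in replicate 1 and 0.815 to 1.83 in replicate 2. High Klhdc1 was seen in 3 of 6 livers labelled Bmal1 knockout and 0 of 6 controls, and the cause was not tested.

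Lars2 and Camk1d varied widely within groups and together. At CT12, Lars2 stood at 1362, 828 and 148 RPKM in controls and 131, 5.70 and 772 in the labelled knockouts, and Camk1d at 3994, 2765 and 546 and at 445, 52.9 and 2314. Moxd1 stood at 32.0, 4.35 and 0 RPKM in the labelled knockouts and at most 0.0724 in controls.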
